A study of Homo sapiens with 18 samples.

Results

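EGR1, FOS, FOSB, JUN, JUNB, IER2, IER3, DUSP1, CTGF and CYR61 are immediate early genes, and CTGF and CYR61 are also common readouts of the co-activator YAP. All 10 genes were followed here by the amount of RNA polymerase II (Pol II) carrying phosphate on serine 5 of its C-terminal domain. Each gene was given a window of the hg19 genome, and every region of the deposited table that overlapped the window was taken. Of the 12123 regions in the table, 9 were found in this way, 1 for each of 9 of the 10 genes. The window of FOSB, on chromosome 19, held 0 regions, so FOSB has no value. The cells were Rh30, an alveolar rhabdomyosarcoma line, and in all groups they carried PAX3-FOXO1 tagged with FKBP, which the small molecule dTAG47 directs to degradation. They received the solvent DMSO, or 500 nM dTAG47 for 2 h or for 4 h, and each group had 2 Ser5 Pol II ChIP-seq libraries, A and B. The other 12 samples of the series were made with other Pol II antibodies and were not analysed here. The labels do not say whether the tagged line is 1 clone, whether separate cultures stand behind the 2 libraries of a group, or how long the DMSO cells were treated. All p-values therefore speak of the spread among these libraries alone, and that spread may be technical. Marker genes of the line were not checked, because an hg19 annotation was not used here.

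Immediate early genes are switched on within minutes of a growth factor or stress signal and need no new protein synthesis. Many of their promoters are bound by serum response factor, at a sequence called the CArG box, or by CREB, at the cyclic AMP response element (CRE). Their products are often short-lived, and several shut the response down again. YAP and its relative TAZ do not bind DNA themselves but act through TEAD factors, and YAP is known to be active in rhabdomyosarcoma. Pol II phosphorylated on serine 5 gathers where transcription starts, and many of these genes are known to hold paused polymerase before a signal arrives.

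The start regions of 4 of the genes are printed because EGR1, JUNB and CTGF gained Ser5 Pol II at 2 h, while JUN stayed near its DMSO level. Each sequence runs from 250 bases before the start site to 50 bases after it, 5′ to 3′ on the gene's own strand, from RefSeq on GRCh38.p14. Of the 10 genes, 8 were matched in that table by their current symbols, in which CTGF is CCN2. IER3 and CYR61, now CCN1, were not matched. These coordinates belong to another build than the table of counts, so the measured regions were not laid over them. Capitals mark matches to 5 motifs, searched on both strands: the CArG box by its name, CRE (TGACGTCA), AP-1 (TGANTCA), TEAD (GGAATG) and the TATA box (TATAAA).
EGR1, chr5:138465229-138465528, plus strand: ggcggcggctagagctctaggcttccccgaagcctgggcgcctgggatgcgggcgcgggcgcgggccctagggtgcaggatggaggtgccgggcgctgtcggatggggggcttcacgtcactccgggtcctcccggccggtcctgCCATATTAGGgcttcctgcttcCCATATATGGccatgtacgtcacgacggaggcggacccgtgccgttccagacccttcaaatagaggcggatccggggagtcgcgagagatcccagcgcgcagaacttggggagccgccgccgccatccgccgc
JUNB, chr19:12791236-12791535, plus strand: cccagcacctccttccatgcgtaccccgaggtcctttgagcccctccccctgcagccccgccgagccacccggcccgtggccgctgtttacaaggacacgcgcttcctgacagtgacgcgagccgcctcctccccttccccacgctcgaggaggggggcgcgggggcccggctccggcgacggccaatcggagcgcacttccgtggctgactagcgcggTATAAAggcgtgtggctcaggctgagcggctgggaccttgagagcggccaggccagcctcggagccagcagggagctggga
CTGF, chr6:131951323-131951622, minus strand: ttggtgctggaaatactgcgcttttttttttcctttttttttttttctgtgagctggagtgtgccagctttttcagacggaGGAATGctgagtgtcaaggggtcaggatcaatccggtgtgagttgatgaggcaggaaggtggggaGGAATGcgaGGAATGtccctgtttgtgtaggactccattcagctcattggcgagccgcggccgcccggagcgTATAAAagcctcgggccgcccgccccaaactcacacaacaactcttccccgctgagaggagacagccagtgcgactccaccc
JUN, chr1:58783998-58784297, minus strand: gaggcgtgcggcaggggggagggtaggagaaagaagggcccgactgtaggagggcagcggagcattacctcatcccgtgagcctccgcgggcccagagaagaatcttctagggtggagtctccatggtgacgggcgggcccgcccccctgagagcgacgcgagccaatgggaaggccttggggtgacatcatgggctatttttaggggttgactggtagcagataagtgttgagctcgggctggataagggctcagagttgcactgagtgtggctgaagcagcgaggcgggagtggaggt

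The EGR1 sequence held 2 CArG boxes, CCATATTAGG and CCATATATGG, whose first bases lie at -105 and -83 from the start site. A CArG box was found in 1.29% of the 35116 promoter sequences of the same length. The CTGF sequence held GGAATG 3 times, at -169, -104 and -95, and at least 1 match stood in 14.0% of all promoters. DUSP1, whose sequence is not printed, had the CRE letters TGACGTCA at -125, against 1.85% of all promoters. The TATA box was found in 5 of the 8 sequences, those of FOS, FOSB, JUNB, DUSP1 and CTGF, and in 11.5% of all promoters. AP-1 was matched in 0 of the 8 and in 7.71% of all promoters. The JUN and IER2 sequences had no match to any of the 5 motifs as spelled. Near matches were not counted: the JUN sequence holds tgacatca, which differs from the CRE letters TGACGTCA at 1 base. The EGR1 sequence holds tcacgtca, that of FOSB tgacgtaa and that of DUSP1 also tgacgtct, each again differing from those letters at 1 base. These are matches of letters and not measured binding sites, and no motif overlapped another.

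Each measured region spans 400 bases, so levels can be set side by side per equal length. They were not corrected here for input or copy number. Where the strand is known from the same RefSeq table, the centre of the region lay 1.09 to 1.74 kb inside the upstream edge of the gene's window for EGR1, FOS, JUN, JUNB, DUSP1 and CTGF. For IER2 it lay 3.72 kb inside, past the middle of the window. Libraries held 962251 to 1792013 counts over all regions, and the 9 regions held 57 to 810 counts each. The lowest of these, the EGR1 count in 4 h library B, has a 95% Poisson interval of 43.2 to 73.9, which covers counting error only. A few regions with very high counts took a share that differed between libraries: for the 3 highest it was 1.77% in DMSO library A, 2.61% in DMSO library B, 2.61% and 3.21% in the 2 h libraries, and 2.61% and 4.17% in the 4 h libraries. It was higher in library B than in library A in each group. Both 2 h libraries lay above both DMSO libraries, though 2 h library A only just (2.614% against 2.612% in DMSO library B). The 4 h libraries overlapped both other groups. Levels are given as CPM, counts relative to the TMM-scaled library size, and changes as log2 fold changes from edgeR.

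In DMSO the 9 regions ranged from 406 CPM at IER2 to 52.7 CPM at EGR1. IER2 stood above 99.4% of all regions, JUNB above 97.1%, JUN above 96.6% and CYR61 above 95.3%. DUSP1 stood above 90.5%, FOS above 76.5%, IER3 above 57.5%, CTGF above 51.7% and EGR1 above 36.2%. The order of the DMSO means was IER2, JUNB, JUN, CYR61, DUSP1, FOS, IER3, CTGF and EGR1. In that order the 2 libraries of JUN overlapped those of both JUNB and CYR61, and those of CTGF overlapped those of both IER3 and EGR1. The other neighbours did not overlap. The genes that were later called as risen thus included JUNB, near the top of this order, and IER3, CTGF and EGR1 at its lower end.

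Within 2 h of dTAG47, Ser5 Pol II rose at EGR1, JUNB, IER3 and CTGF, by 1.46-fold to 1.83-fold. These are 4 of the 9 regions, where 2.22% of all regions rose (adjusted p under 0.05 in edgeR, with the adjustment over all 12123 regions). The genes were chosen with earlier results of these data known, so setting 4 of 9 beside 2.22% is a description and no test. Called as lower were 0 of the 9, against 0.396% of all regions, so low a share that a count of 0 says nothing about these genes. In 8 of the 9, JUN being the exception, both 2 h libraries lay above both DMSO libraries, an arrangement seen in 21.9% of all regions. The median log2 fold change of the 9 was 0.50, against -0.01 over all regions. At 4 h 0 of the 9 were called, against 1.52% of all regions called as higher and 0.487% as lower. At these shares too, a count of 0 says nothing about these genes.

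**Figure D1:**
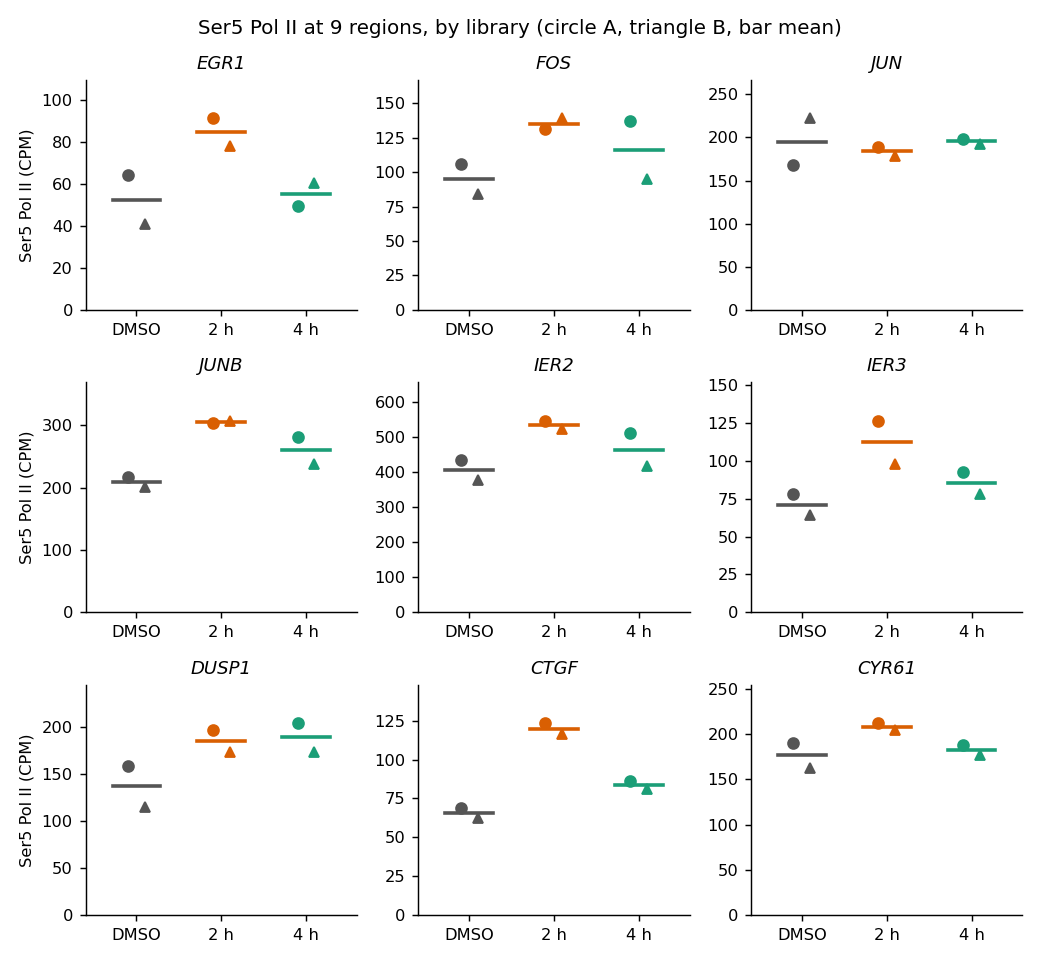
Ser5 Pol II in CPM (vertical axis, from 0, scaled separately in each panel) at the region of each gene in DMSO and after 2 h and 4 h of dTAG47, with circles for library A, triangles for library B and bars for the mean of the 2. At EGR1, JUNB, IER2, IER3, CTGF and CYR61 both 2 h libraries lie above all libraries of the other groups. The share of all regions with this arrangement was not counted. At JUN the DMSO libraries span the treated ones.

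Among the transcription factors, EGR1, a zinc finger factor induced by growth factors and mechanical stress, was measured on chromosome 5 at 137801033 to 137801433. At EGR1, DMSO libraries A and B gave 64.3 and 41.1 CPM, the 2 h libraries 91.5 and 78.3 CPM and the 4 h libraries 49.8 and 60.7 CPM. Both 2 h libraries were above the other 4, and the 4 h libraries lay within the span of the DMSO libraries. The means were 52.7 ± 16.4 CPM for DMSO, 84.9 ± 9.32 CPM for 2 h and 55.3 ± 7.74 CPM for 4 h (SD, n = 2 each). The log2 fold change at 2 h was 0.66 (SE 0.17, edgeR adjusted p = 0.0232). The call was lost without DMSO library B (0.41, adjusted p = 0.258), without 2 h library A (0.55, adjusted p = 0.259) and with total count scaling (0.60, adjusted p = 0.0568), while over the alternatives run the edgeR and limma adjusted p ranged from 0.000798 to 0.259. At 4 h the log2 fold change was 0.01 (95% interval -0.38 to 0.40, edgeR adjusted p = 0.990), and its sign turned with total count scaling, without DMSO library B (-0.24) and without 4 h library B (-0.10). Without DMSO library A the 2 h value was 1.05 and the 4 h value 0.40.

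JUNB, an AP-1 subunit that can oppose JUN, was measured on chromosome 19 at 12902185 to 12902585. At JUNB, DMSO libraries A and B gave 217 and 202 CPM, the 2 h libraries 304 and 308 CPM and the 4 h libraries 282 and 238 CPM. All 4 treated libraries were above the DMSO libraries, and the 4 h libraries were below the 2 h ones. The log2 fold change was 0.55 at 2 h (SE 0.15, edgeR adjusted p = 0.0273) and 0.32 at 4 h (SE 0.15, adjusted p = 0.336). The 2 h call was lost when any one of the DMSO or 2 h libraries was left out, with log2 fold changes of 0.50 to 0.60 and edgeR adjusted p from 0.0569 to 0.197. It was also lost with total count scaling (0.48, adjusted p = 0.0767) and with DESeq2 (0.55, adjusted p = 0.0860).

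FOS, the founding partner of JUN in AP-1, was measured on chromosome 14 at 75745391 to 75745791. At FOS, DMSO libraries A and B gave 106 and 84.2 CPM, the 2 h libraries 131 and 139 CPM and the 4 h libraries 137 and 94.8 CPM. The 2 h libraries were above the DMSO libraries, while the 4 h libraries were far apart, with A near the 2 h level and B within the DMSO span. The log2 fold change at 2 h was 0.50 (SE 0.15, edgeR adjusted p = 0.0704), which missed the threshold, and at 4 h it was 0.32 (SE 0.16, adjusted p = 0.385). Without 4 h library A the 4 h value was -0.01, and without 4 h library B it was 0.53. FOS passed the threshold at 2 h without DMSO library A (0.68, edgeR adjusted p = 0.0248), and also without either 4 h library (0.50, adjusted p = 0.0305 and 0.0315).

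JUN, the central AP-1 subunit, was measured on chromosome 1 at 59248960 to 59249360 and had no such pattern. At JUN, DMSO libraries A and B gave 168 and 222 CPM, the 2 h libraries 189 and 179 CPM and the 4 h libraries 198 and 193 CPM. The DMSO libraries enclosed all 4 treated libraries. Log2 fold changes were -0.08 at 2 h (95% interval -0.38 to 0.22, edgeR adjusted p = 0.884) and 0.01 at 4 h (95% interval -0.29 to 0.31, adjusted p = 0.987). On the linear scale the 2 h interval runs from 0.771-fold to 1.16-fold, so a rise of the size fitted at EGR1, 1.58-fold, lies outside it. The EGR1 value has its own interval, 1.24-fold to 2.02-fold, and the difference between the genes was not tested. The sign of the 2 h value turned without DMSO library B (0.14), and that of the 4 h value turned with total count scaling, without DMSO library A (-0.18) and without 4 h library A (-0.0099).

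Among the other immediate early products, IER3, a short-lived protein tied to cell survival and ERK signalling, was measured on chromosome 6 at 30711859 to 30712259. At IER3, DMSO libraries A and B gave 77.8 and 64.3 CPM, the 2 h libraries 126 and 98.1 CPM and the 4 h libraries 92.6 and 77.8 CPM. The 2 h libraries were above all others, and 4 h library B was only just above DMSO library A (77.77 against 77.75 CPM). Fitted log2 fold changes were 0.65 at 2 h (SE 0.16, edgeR adjusted p = 0.00995) and 0.27 at 4 h (SE 0.16, adjusted p = 0.507). The 2 h call was lost without 2 h library A (0.45, adjusted p = 0.342), without DMSO library B (0.54, adjusted p = 0.0600) and with DESeq2 (0.66, adjusted p = 0.191).

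DUSP1, a phosphatase that switches MAP kinases off, was measured on chromosome 5 at 172197939 to 172198339. At DUSP1, DMSO libraries A and B gave 159 and 115 CPM, the 2 h libraries 197 and 173 CPM and the 4 h libraries 204 and 174 CPM. All 4 treated libraries were above the DMSO libraries and the 2 times overlapped. The log2 fold changes of 0.43 at 2 h (SE 0.15, edgeR adjusted p = 0.135) and 0.47 at 4 h (SE 0.15, adjusted p = 0.114) missed the threshold. Its change at 4 h was the highest of the 9. Without DMSO library A it passed at both times, with 0.69 at 2 h (edgeR adjusted p = 0.0175) and 0.73 at 4 h (adjusted p = 0.0127). Without DMSO library B the values were 0.23 at 2 h (edgeR adjusted p = 0.578) and 0.28 at 4 h (adjusted p = 0.500).

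IER2, a nuclear protein of the early response, was measured on chromosome 19 at 13263718 to 13264118, and had the highest level of the 9. At IER2, DMSO libraries A and B gave 435 and 377 CPM, the 2 h libraries 546 and 523 CPM and the 4 h libraries 510 and 415 CPM. The 2 h libraries were above all others, and 4 h library B lay between the DMSO libraries. Against DMSO the log2 fold change was 0.39 at 2 h (SE 0.16, edgeR adjusted p = 0.201) and 0.19 at 4 h (SE 0.16, adjusted p = 0.674), neither past the threshold. The 4 h value was 0.03 without 4 h library A and 0.34 without 4 h library B. With the share of the 3 highest regions as a covariate IER2 was called at both times, with 0.54 at 2 h (edgeR adjusted p = 5.96e-05) and 0.41 at 4 h (adjusted p = 0.0377).

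The matricellular proteins CTGF and CYR61 are secreted, bind integrins and are the most used readouts of YAP and TEAD. CTGF was measured on chromosome 6 at 132272248 to 132272648, and had the largest change at 2 h of the 9 genes. At CTGF, DMSO libraries A and B gave 68.6 and 62.3 CPM, the 2 h libraries 124 and 116 CPM and the 4 h libraries 86.3 and 81.0 CPM. The 3 groups did not overlap: DMSO was lowest, 4 h intermediate and 2 h highest. The mean went from 65.4 ± 4.46 CPM to 119.9 ± 5.15 CPM at 2 h, a 1.83-fold rise (SD, n = 2 each). The log2 fold change of 0.87 (SE 0.15, edgeR adjusted p = 0.000112) ranked 69 from the highest of all 12123 regions. CTGF was called at 2 h in all 15 alternatives that gave it a value of its own, with adjusted p from 6.33e-08 to 0.0115 in edgeR, limma and DESeq2. Of the 15, the fit without the low-count filter adds nothing, because the filter removed 0 regions and the fit is the same. At 4 h the mean was 83.6 ± 3.79 CPM (SD, n = 2) and the log2 fold change 0.36 (SE 0.16, edgeR adjusted p = 0.309).

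CYR61 was measured on chromosome 1 at 86046306 to 86046706 and had a smaller fitted change. At CYR61, DMSO libraries A and B gave 190 and 163 CPM, the 2 h libraries 212 and 204 CPM and the 4 h libraries 188 and 177 CPM. The 2 h libraries were the highest, and both 4 h libraries lay within the DMSO span. The log2 fold change was 0.24 at 2 h (95% interval -0.05 to 0.52, edgeR adjusted p = 0.473) and 0.05 at 4 h (95% interval -0.25 to 0.34, adjusted p = 0.944). The 2 h value was 0.36 without DMSO library A and 0.14 without DMSO library B. The sign of the 4 h value turned with total count scaling, without DMSO library B (-0.04) and without 4 h library A (-0.0012). The 2 h interval of CYR61 ends below the 0.57 at which that of CTGF begins, but the difference between the genes was not tested.

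**Figure D2:**
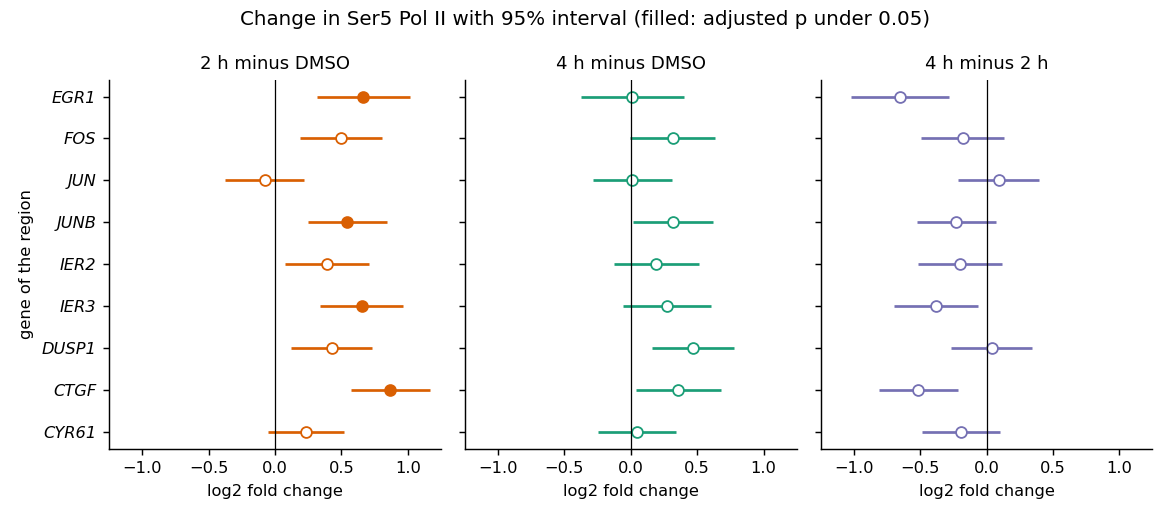
Log2 fold changes (horizontal axes) with 95% intervals for the 9 regions in the 3 comparisons, from edgeR with all 6 libraries in the fit, where filled points have an adjusted p under 0.05. The 4 filled points, all at 2 h, are EGR1, JUNB, IER3 and CTGF.

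The count of 4 called regions at 2 h moved when single libraries were left out, and so did the share of all regions called as higher. Leaving out a DMSO or 2 h library leaves 1 in its group, so a lost call may reflect fewer data as well as that library. The same 4 were called with median of ratios factors (2.24% of all regions as higher), limma-voom (2.49%) and a mean of at least 50 counts (2.39%). Without DMSO library B the count was 1, CTGF, against 2.94% of all regions, and without 2 h library A it was again CTGF alone, against 1.15%. Without 2 h library B it was 3, against 1.05%, and JUNB was lost. Without DMSO library A it was 5, against 1.26%, where FOS and DUSP1 were gained and JUNB was lost. Without either 4 h library FOS was gained, which made 5, against 2.94% and 3.01%. With total count scaling 2 were called, against 1.37%, and with DESeq2, which gave EGR1 no adjusted p, 1 was, against 0.792%. A covariate for the share taken by the 3 highest regions gave 7, all but JUN and CYR61, against 3% of all regions.

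At 4 h, edgeR called 0 of the 9 regions as higher, against 1.52% of all regions. DESeq2 and limma-voom called 0 as well, against 0.437% and 1.7% of all regions called as higher. At shares so low, these counts of 0 do not show a loss of signal. Without adjustment, JUNB, DUSP1 and CTGF were higher at p under 0.05 in edgeR, 3 of the 9 against 8.2% of all regions. Both 4 h libraries lay above both DMSO libraries in 4 of the 9: JUNB, IER3, DUSP1 and CTGF. The same held in 20.2% of all regions. For IER3 it held only just, with 77.77 CPM in 4 h library B against 77.75 CPM in DMSO library A. The fitted changes ran from 0.01 at EGR1 to 0.47 at DUSP1 with a median of 0.27, against -0.01 over all regions, and the comparison used the same DMSO libraries as that at 2 h. With that covariate FOS, JUNB, IER2 and DUSP1 were called at 4 h, against 1.58% of all regions. Without DMSO library A, DUSP1 was called, against 0.734%.

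**Figure D3:**
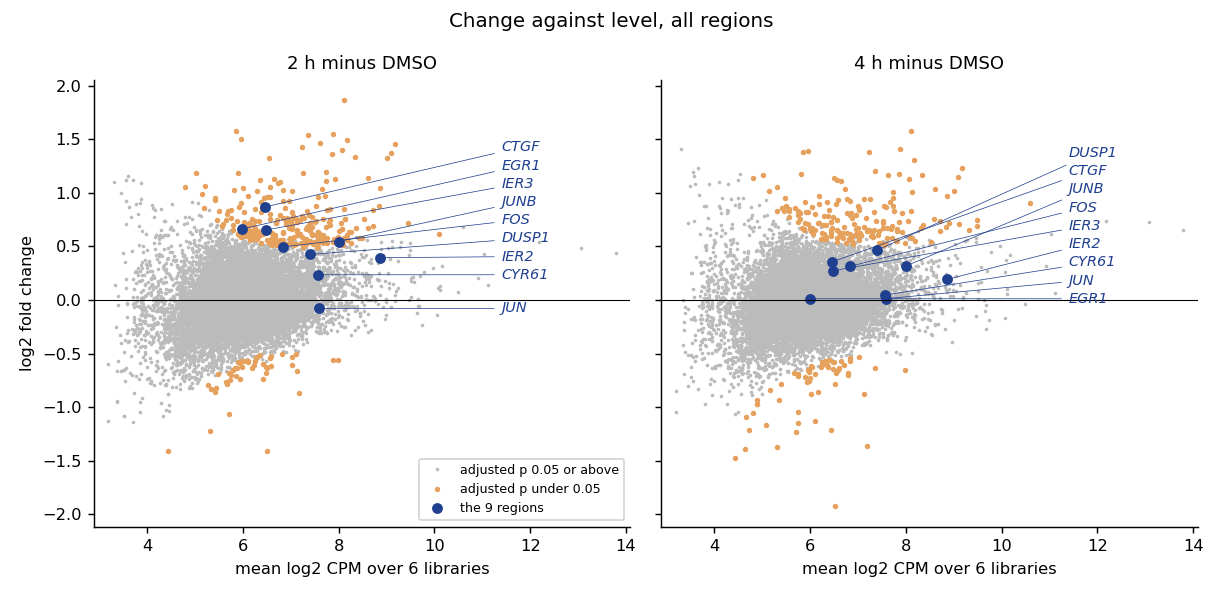
Log2 fold change (vertical axis) against mean log2 CPM over the 6 libraries (horizontal axis) for all 12123 regions at 2 h and at 4 h, with called regions in orange and the 9 regions in blue. At 2 h, 8 of the 9 lie above 0, and at 4 h EGR1, JUN and CYR61 lie near it.

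The direct comparison of 4 h with 2 h asked whether the signal at these genes had come down. In edgeR 0 of the 9 regions passed the threshold, as did 0% of all regions, and each of the 9 had an adjusted p of 0.998. DESeq2 and limma-voom also called 0 of the 9, and 0% of all regions. At an unadjusted p under 0.05, EGR1, IER3 and CTGF were lower at 4 h, 3 of the 9 against 2.07% of all regions. They had log2 fold changes of -0.65 (SE 0.18) for EGR1, -0.38 (SE 0.16) for IER3 and -0.51 (SE 0.15) for CTGF, and the 95% intervals, not adjusted for the number of regions, were -1.02 to -0.28, -0.70 to -0.06 and -0.81 to -0.21. In 6 of the 9, namely EGR1, JUNB, IER2, IER3, CTGF and CYR61, both 4 h libraries lay below both 2 h libraries, as in 16.4% of all regions. DUSP1 (0.04) and JUN (0.09) had fitted values above 0. A call at 2 h without one at 4 h is therefore not shown to be a difference between the times for any of these genes.

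The nearest measured regions outside the windows were set beside the genes, 1 on either side, 18 in all, at 4.09 to 449.8 kb. None of the 18 was called at 2 h or at 4 h. Over all regions 2.22% were called as higher and 0.396% as lower at 2 h, and 1.52% and 0.487% at 4 h. At shares so low, 0 of 18 says nothing about the neighbours. Their median log2 fold change was 0.08 at 2 h and -0.07 at 4 h. For CTGF the neighbours, at 143 kb and 449.8 kb, had 0.15 and -0.31 at 2 h, and for EGR1, at 113 kb and 77.8 kb, 0.29 and 0.15. For JUNB they were much closer, at 13.2 kb and 15.1 kb, and had 0.18 and -0.14. The CYR61 neighbour at 4.09 kb had 0.01. Beside IER2, the region at 10.6 kb, on chromosome 19 at 13274348 to 13274748, had the highest value of the 18, 0.46 at 2 h (SE 0.14, edgeR adjusted p = 0.0712), above the 0.39 of IER2 itself.

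**Figure D4:**
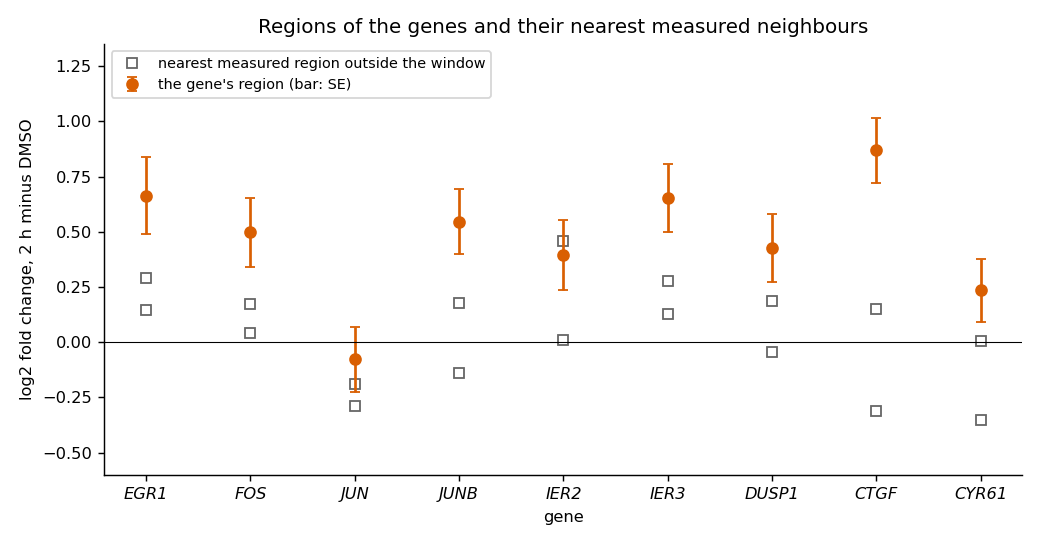
Log2 fold change from DMSO to 2 h (vertical axis) of each gene's region, with its SE from edgeR, and of the nearest measured region on either side of the gene's window (open squares). The gene's region is the higher in every gene but IER2, where a neighbour has 0.46 against 0.39.

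To describe regions with a like course, the log2 CPM of the 9 regions was centred and averaged over the 9, giving -0.12 and -0.34 in the DMSO libraries, 0.30 and 0.19 in the 2 h libraries, and 0.07 and -0.09 in the 4 h libraries. IER3 followed this mean most closely (Pearson's r = 0.976 over the 6 libraries) and JUN went against it (r = -0.445). Each of the 9 is itself part of this mean, so high values of r among them are partly built in. Among the 11988 other regions whose mean count was 20 or more, the closest was on chromosome 7 at 7679816 to 7680216 (r = 0.995), with means of 47.1 CPM in DMSO, 67.2 at 2 h and 56.7 at 4 h. The next 4 began at 80055917 on chromosome 17, at 32699735 on chromosome 20, at 125398949 on chromosome 12 and at 35732101 on chromosome 9, with r from 0.986 to 0.989. Of these 5, the chromosome 12 region was called at 2 h (log2 fold change 0.64, edgeR adjusted p = 0.00697) and none at 4 h. With 6 libraries and so many regions, high values of r are easily found, and they are given as a description.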

How the data were processed

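The authors deposited raw counts of Ser5 Pol II ChIP-seq reads for 12123 regions in 6 columns. Trimmomatic 0.32, Bowtie2, DiffBind, MACS2 and DESeq2 and the builds dm3 and hg19 appear, without roles, in the submitters' processing notes. Region calling, read counting and any input subtraction are not given in the sources. No spike-in or whole-library totals were used, so a change of all regions by 1 factor would not be seen. Columns were tied to groups by name, and their letters to no replicate number.

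The main test was edgeR's quasi-likelihood test (version 4.0.16, under R 4.3.3), scaled by TMM, with all 6 libraries in 1 fit and Benjamini-Hochberg adjustment over 12123 regions (called under 0.05). The filterByExpr filter removed 0 regions. The SE is the log2 fold change divided by the square root of F, and 95% intervals use the fit's degrees of freedom. Libraries of a group differed beyond sampling noise (chi-square per degree of freedom 1.5 to 2.33). Alternatives used DESeq2 1.42.0 and limma 3.58.1 (voom), other scalings, filters and fits, and left out each library. Promoter sequences were read with Python 3.11.15.

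The text names every region in the gene windows, the nearest region on either side of each window, and the 5 regions with the highest r to the members' mean course. The members, lists and tests were chosen with earlier results of these data known. Other immediate early and YAP genes had been listed but were not placed, because an hg19 annotation was not used here.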

Additional observations from a re-analysis of the deposited data

How the results depend on the processing

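At 2 h, 2 of the 9 regions were called with total count scaling (1.37% of all regions called as higher), 1 with DESeq2 (0.792%), 7 with the share of the 3 highest regions as a covariate (3%), and 1 to 5 when a library was left out (1.05% to 3.01%), against 2.22% in the fit of all libraries. At 4 h the covariate gave 4 (1.58%), against 0 (1.52%) in the fit of all libraries. The column letters gave a replicate block: with it 7 regions were called at 2 h, FOS, IER2 and DUSP1 being gained (edgeR adjusted p = 0.00321, 0.00179 and 0.00602), and 1, DUSP1, at 4 h (adjusted p = 0.00421). Over all regions the block called 859 and 743 (5.19% and 4.45% as higher), against 317 and 243 without it. The differences between libraries A and B correlated between groups with r of 0.158 to 0.279 across regions, and the labels do not say that a letter marks a shared culture or day. From 2 h to 4 h the count was 0 under every alternative run. Signs turned only for values that the edgeR fit of all libraries had not called. With total count scaling the 4 h values were -0.041 for EGR1, -0.041 for JUN and -0.0077 for CYR61, with the covariate -0.065 for JUN, and with the block -0.0060 for EGR1. Leaving out a library gave -0.24 to 0.40 for EGR1, -0.013 to 0.53 for FOS, -0.18 to 0.24 for JUN and -0.043 to 0.17 for CYR61 at 4 h, -0.27 to 0.14 for JUN at 2 h, and -0.51 to 0.028 for FOS and -0.094 to 0.14 for DUSP1 from 2 h to 4 h. The cause of these shifts was not tested. Omitting the low-count filter tested nothing, since it removed 0 regions, and summing regions by gene was not run, since no window held more than 1. With 57 to 810 counts a region and 2 libraries a group, the 2 h intervals were 0.57 to 0.70 wide on the log2 scale.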
